A study of Sus scrofa with 6 samples.

Results

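Left atria of pigs with mitral regurgitation (MR) were set against left atria of normal control pigs (NC), which are 4 of the 6 arrays of the series. All 6 animals were male Lanyu miniature pigs aged 18 months, with 1 Affymetrix porcine expression array per animal. In the 2 MR pigs a 2.8 mm hole had been made in the posterior leaflet of the mitral valve, and the animals were killed 12 months after that surgery. No surgery is recorded for the 2 NC pigs, so the valve lesion and the surgery that made it cannot be told apart. The remaining 2 pigs (MRV) had the same hole and were given the angiotensin receptor blocker valsartan, at a daily dose of 3.43 mg/kg that began 1 week ahead of the surgery. Their arrays entered the estimate of spread and are quoted beside single genes. The members are all 23999 probe sets of the array other than its 124 control probe sets. Of these, 14399 passed the filter on low values, and 7139 of those carried exactly 1 gene symbol, which gave 5407 genes with 1 probe set each.

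In mitral regurgitation part of the blood that the ventricle ejects returns to the left atrium, which then fills to a larger volume, stretches and enlarges. Stretched atrial muscle is known for secreting natriuretic peptides, for myocyte growth, for collagen deposition between myocytes and for a tendency to atrial fibrillation. Atrial myocytes carry their own isoforms of the myosin light chains, and heart muscle in general draws its energy mainly from the oxidation of fatty acids.

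The tissue carried atrial muscle genes on all 4 arrays. MYL4, the atrial essential myosin light chain, read 21828 and 21842 in NC pigs against 21356 and 21236 in MR pigs. NPPA, atrial natriuretic peptide, read 18414 and 18864 in NC pigs against 19049 and 19832 in MR pigs, and SLN, sarcolipin, an inhibitor of the calcium pump that is typical of atrial muscle, read 8660.4 and 10033 in NC pigs against 5369 and 9876 in MR pigs. Of 18 atrial identity genes 10 were measured, and 5 of these were higher and 5 lower in MR (median log2 difference 0.0033). MYL7, MYH6, BMP10, COL3A1 and CTGF had no tested probe set with a single symbol and were not analysed here. The 3′ to 5′ signal ratio of 1 actin control, a sign of RNA integrity, was 1.61 and 1.91 in NC pigs against 1.44 and 1.70 in MR pigs. On a second actin control the 3′ probe set read 4938 and 3482 in NC pigs against 4303 and 4386 in MR pigs. Its 5′ probe set read 508 and 500 in NC pigs against 531 and 481 in MR pigs, a wider gap on all 4 arrays. The ratio of a GAPDH control was 1.56 and 1.59 in NC pigs against 1.53 and 1.57 in MR pigs. The control for 28S ribosomal RNA read 117 and 468 in NC pigs against 187 and 279.9 in MR pigs. The array medians of the 6 arrays lay between 90.2 and 93.4 intensity units.

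The NC1 array stood apart from most of the other arrays. NC1 and NC2 differed by at least 2-fold in 502 of the 14399 tested probe sets, more than any MR array differed from any NC array. The 4 MR against NC pairs differed in 106 to 409 probe sets, and the 2 MR arrays differed in 153. NC2 and MR2 were the closest pair of the 4 arrays, with 106 such probe sets. NC1 was nearest to MR1, with 225, and that pair was closer than NC2 and MR1, with 302. NC1 also differed from MRV1 and MRV2 in 487 and 555, while NC2 differed from them in 151 and 112. Where a named difference was much smaller without NC1, the value without it is given too, beside the gene or with the other values for single arrays at the end. The p-values measure the spread between the 2 animals of a group, which holds animal and technical variation together.

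**Figure D1:**
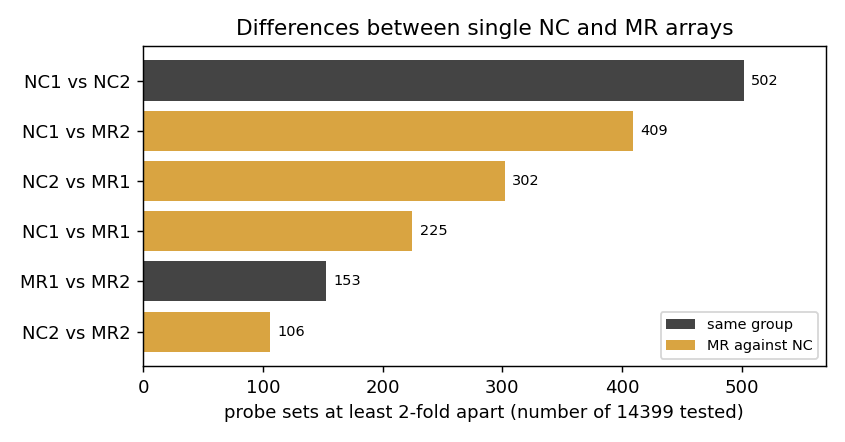
Number of the 14399 tested probe sets that differed at least 2-fold on the log2(intensity + 16) scale between 2 arrays, for each pair among the 2 NC and 2 MR arrays. The pair of NC arrays (502) exceeds all 4 pairs of an MR and an NC array (106 to 409).

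The comparison of MR with NC asked which atrial genes differ 12 months after the lesion. A single gene passed the test. ASNS, asparagine synthetase, which makes asparagine from aspartate with glutamine as the nitrogen donor, fell by 2.06 on the log2 scale in MR, and it was the 1 probe set called among 14399 (0.00694%; limma, Benjamini-Hochberg adjusted p below a threshold of 0.05). All other probe sets had adjusted p-values of 0.662 or more, and all other genes 0.694 or more. Without adjustment, 580 probe sets (4.03%) had a p below 0.05, of which MR was higher in 314 (2.18%) and lower in 266 (1.85%). Of the 5407 genes, ASNS was the 1 called (0.0185%), and 242 (4.48%) had an unadjusted p below 0.05, 138 higher (2.55%) and 104 lower (1.92%). Over the 5407 genes the median log2 difference was 0.0076 and the 5th to 95th percentiles ran from -0.30 to 0.31, so most of the transcriptome differed little between the groups. A total of 52.6% of genes were higher in MR. In the following, a gene without overlap is one whose 2 MR values both lie above, or both below, its 2 NC values. This was seen for 28.2% of genes, 15.7% higher and 12.4% lower, and counts in gene lists are read against these shares. By chance alone 2 arrays against 2 would be without overlap for 33.3% of genes. The lack of overlap in a gene is thus a description and by itself no sign of a difference. Genes other than ASNS are given by their values alone.

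ASNS read 779 and 852 in NC pigs against 193 and 173 in MR pigs, or 816 ± 52 and 183 ± 14.3 (mean ± SD, n = 2). The groups lay far apart, and the arrays of each group lay close together. The log2 difference was -2.06 (SE 0.12, limma adjusted p = 0.0445). Leaving out single arrays gave log2 differences from -2.14 to -1.99, but with 3 arrays in the comparison no adjusted p passed the threshold. Over 12 alternatives to the processing, single arrays left out included, its limma adjusted p ranged from 0.0342 to 0.876 and missed the threshold in 9. In the MRV atria ASNS read 214 and 237, also below both controls.

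The genes around ASNS did not share its size of difference. The amino acid response list holds genes that cells induce through the transcription factor ATF4 when amino acids are short, ASNS among them. Of its 40 genes 25 were measured, 13 higher and 12 lower in MR, with 3 higher and 5 lower without overlap and a median of 0.0032. PSAT1, which makes the precursor of serine, read 571 and 296 in NC pigs against 287 and 253 in MR pigs, and only NC1 stood apart from the other values. Without NC1 its log2 difference was -0.13, against -0.58 with all arrays. ALDH18A1, which opens proline synthesis, read 491 and 499 in NC pigs against 635 and 578 in MR pigs, with both MR values above both NC values. Of the 19 genes of glutamine, glutamate and aspartate enzymes 10 were measured, 3 higher and 7 lower, with a median of -0.17 and -0.051 without NC1. GLUL, glutamine synthetase, which supplies the glutamine that ASNS uses, read 1507 and 1643 in NC pigs against 860.5 and 1194 in MR pigs (log2 difference -0.63), and 699 and 873 in MRV. Both MR and both MRV values lay below the controls, while 2 dimmer GLUL probe sets, both with overlap, differed by -0.75 and -0.038. GPT, alanine transaminase, read 571 and 601 in NC pigs against 489 and 463 in MR pigs, and ASL, argininosuccinate lyase, 290.1 and 201 in NC pigs against 197 and 181 in MR pigs. Of 40 amino acid carriers 12 were measured, 3 higher and 9 lower, with a median of -0.087. SLC38A1, which takes up glutamine, went the other way from most of them at 259.8 and 372 in NC pigs against 414 and 493 in MR pigs. SLC1A4, a carrier of alanine, serine and cysteine, read 105 and 88 in NC pigs against 78.8 and 82.7 in MR pigs.

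A 2-fold difference without overlap held for 55 probe sets (0.382%). Of these, MR was the higher group for 21 (0.146%) and the lower group for 34 (0.236%). These counts have no test. The smallest such log2 difference was 1.02, and the largest among probe sets without overlap that missed the limit was 0.999. Of the 55, 31 carried 1 symbol and 24 did not. Among genes represented by their brightest probe set, 21 reached the limit (0.388%), 8 higher (0.148%) and 13 lower (0.24%). Leaving out each of the 4 arrays in turn left 14 of the 55 probe sets at 2-fold or more every time. Counts of such probe sets without single arrays are not set beside the 55, because lack of overlap is easier to reach with 1 array left in a group. Of the 21 higher probe sets, 15 were also above both MRV arrays, and of the 34 lower ones 17 were also below both. In 8 of the 21 and 18 of the 34, the MR and MRV arrays all lay beyond both NC arrays. These probe sets were selected by their MR and NC values, and no shares over all probe sets are given. The counts are thus no result about MRV. The probe set with the second smallest p of all had no gene symbol and read 93.5 and 86.7 in NC pigs against 236 and 228 in MR pigs (limma adjusted p = 0.662).

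**Figure D2:**
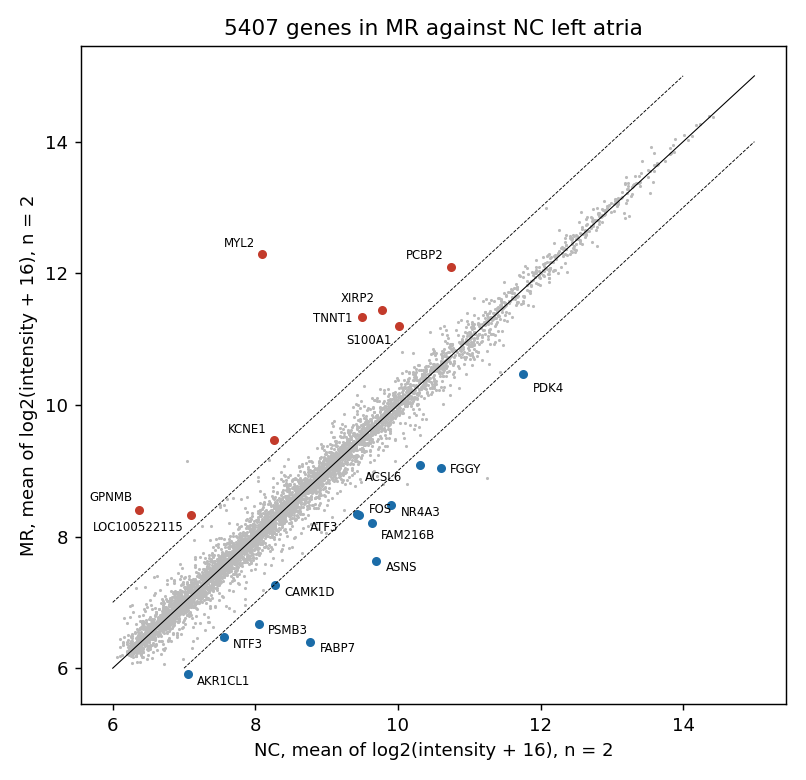
Mean log2(intensity + 16) of each of 5407 genes in NC (x axis) and MR (y axis), n = 2 arrays each; the solid line marks equal values and the dashed lines a 2-fold difference. Red (8 higher) and blue (13 lower) points are genes at least 2-fold apart without overlap, with MYL2 farthest above the line and FABP7 and ASNS farthest below it.

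Among the genes lower in MR were several of fuel use. PDK4, a kinase that shuts pyruvate out of oxidation when fatty acids are burnt, read 2003 and 5943 in NC pigs against 1311 and 1501 in MR pigs. The MR values lay below both controls, but NC2 alone was far above the rest, and the log2 difference of -1.29 was -0.51 without NC2. A second PDK4 probe set gave -1.58, and MRV atria read 7036 and 4614 on the first. ACSL6, which activates long-chain fatty acids with coenzyme A, read 1596 and 974 in NC pigs against 513 and 546 in MR pigs (log2 difference -1.21, SE 0.31). Its second probe set gave -1.07, so both probe sets of ACSL6 were at least 2-fold lower. FGGY, a kinase of pentulose sugars, read 1242 and 1921 in NC pigs against 952 and 274 in MR pigs, where MR2 was far below the other 3 arrays, and 1888 and 1304 in MRV. FABP7, a fatty acid binding protein best known from nervous tissue, read 444 and 399 in NC pigs against 43.3 and 105 in MR pigs, with the largest log2 difference of any lower gene (-2.37, SE 0.34). MRV read 78.6 and 107, in the range of MR.

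Signalling and stress genes made up much of the rest of the lower group. NR4A3, an orphan nuclear receptor and early response gene, read 849 and 1052 in NC pigs against 190.4 and 599.8 in MR pigs, and FOS, a subunit of the AP-1 transcription factor, read 683 and 694 in NC pigs against 160.5 and 574 in MR pigs. In both genes MR1 was far lower than MR2, and both MR values lay below both controls. Without MR1 the log2 difference was -0.64 for NR4A3 and -0.26 for FOS. ATF3, a stress-induced transcription factor, read 1099.5 and 409 in NC pigs against 265 and 357 in MR pigs, and only NC1 was far above the MR values. Its log2 difference was -1.09 with all arrays and -0.39 without NC1, and MRV atria read 89.1 and 49, below every MR and NC array. CAMK1D, a calcium and calmodulin dependent kinase, read 332 and 261 in NC pigs against 175 and 106 in MR pigs and 552 and 366 in MRV. MR was the lowest group for CAMK1D. NTF3, neurotrophin 3, a growth factor for nerve cells, read 182 and 164 in NC pigs against 65.7 and 80.7 in MR pigs (log2 difference -1.09, SE 0.16), without overlap and with close values within each group.

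The other lower genes came from varied classes. PSMB3, a subunit of the proteasome core, read 322 and 191 in NC pigs against 82.2 and 90.9 in MR pigs, while the other proteasome genes differed far less, as described with that list. FAM216B, whose function is not established, read 1152 and 529 in NC pigs against 325 and 239 in MR pigs, and 637 and 777 in MRV. AKR1CL1, an aldo-keto reductase, read 134 and 102 in NC pigs against 55.3 and 34.5 in MR pigs, and its MRV values of 124 and 93.5 overlapped the controls. Of its other probe sets, 1 differed by -1.25 and 1 by -0.24, so the probe sets of AKR1CL1 disagreed in size.

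Genes of contraction led the higher group. MYL2, the regulatory myosin light chain of ventricular and slow muscle, read 203 and 325 in NC pigs against 10693 and 2318 in MR pigs. Both MR arrays lay far above both controls, yet MR1 and MR2 also lay far from each other, so the log2 difference of 4.19 had an SE of 1.01. It was 3.09 without MR1, and MRV atria read 152 and 954. TNNT1, the slow skeletal muscle troponin T, read 497 and 996 in NC pigs against 2421 and 2724 in MR pigs (log2 difference 1.84, SE 0.54). Its MR values lay close together while the controls differed between themselves, and MRV read 323 and 957, in the range of NC. XIRP2, an actin-binding protein of the intercalated disc, read 467 and 1587 in NC pigs against 3218 and 2399.5 in MR pigs. NC1 was far below the other arrays, and without NC1 the log2 difference of XIRP2 was 0.80 against 1.67. S100A1, a calcium sensor that raises calcium cycling in heart muscle, read 812 and 1277 in NC pigs against 2812 and 1947 in MR pigs and 725 and 1360.5 in MRV. KCNE1, the auxiliary subunit of the slow delayed rectifier potassium channel, read 264 and 318 in NC pigs against 653 and 726 in MR pigs (log2 difference 1.20, SE 0.27), and it stayed at 2-fold or more when any single array was left out.

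The 3 remaining higher genes were not grouped with those of contraction. PCBP2, an RNA-binding protein, read 1671 and 1718 in NC pigs against 4220.4 and 4543 in MR pigs, with tight values in both groups. In MRV, however, it read 3876 and 1517, and its further probe sets gave log2 differences of -0.026 and -0.050, so the difference belongs to 1 of 3 probe sets. GPNMB, a membrane glycoprotein of macrophages and other cells rich in lysosomes, read 62 and 72.2 in NC pigs against 682 and 147 in MR pigs. MR1 carried most of the difference, which was 0.97 without MR1 against 2.02 with it. LOC100522115, an uncharacterised locus, read 94.2 and 155 in NC pigs against 237 and 392 in MR pigs. For 4 further symbols a dimmer probe set passed 2-fold but the brightest did not, and they are named after their values were seen. For AMY2, RPL23, TNFRSF12A and KIAA0907 the brightest probe set differed by 0.21, 0.020, 0.19 and -0.039.

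**Figure D3:**
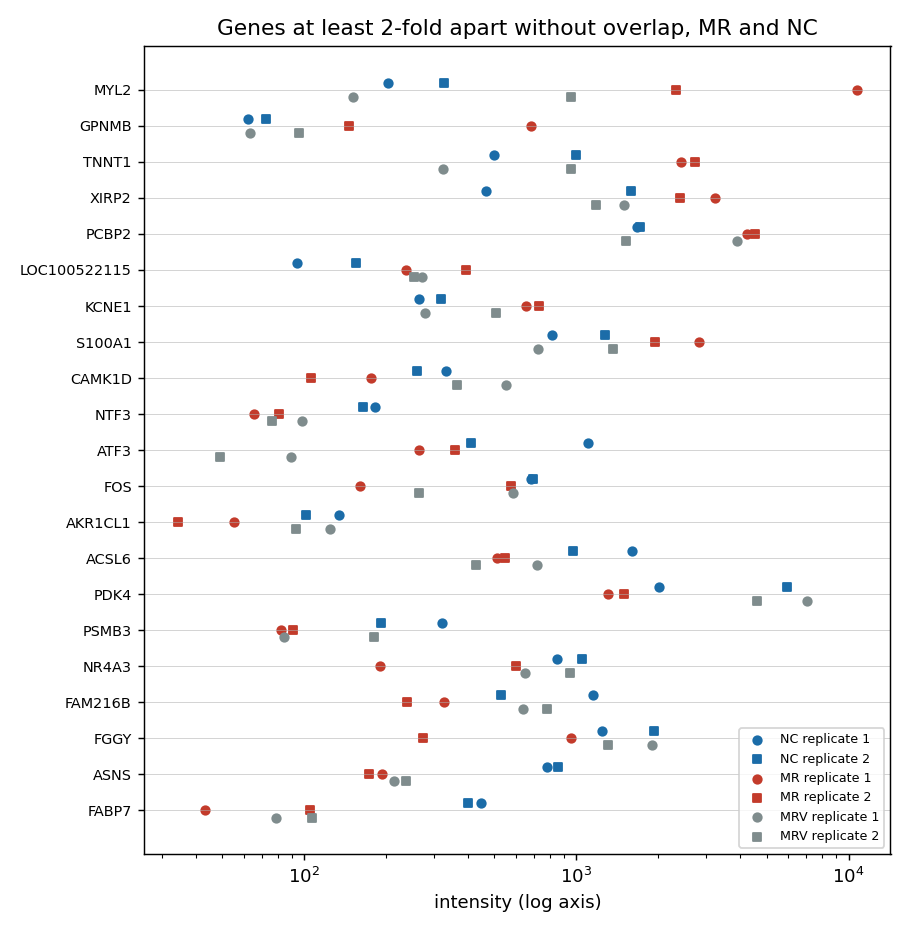
Intensity (log axis) on each of the 6 arrays of the 21 genes at least 2-fold apart without overlap between MR and NC; colours mark the groups and symbols the replicate number. Within NC and MR, ASNS, NTF3, KCNE1 and PCBP2 show tight groups, while MYL2, GPNMB, FOS and PDK4 each have 1 array far from its partner. The MRV arrays of PCBP2 and KCNE1 lie further apart.

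The ventricular and slow muscle list was higher as far as measured, with its size carried by 2 genes. All 8 measured genes of 16 were higher in MR, 4 of them without overlap (50% against 15.7% of all genes), and the median was 0.16. The median was between 0.18 and 0.20 when single arrays were left out. Apart from MYL2 and TNNT1, the differences were small. TNNC1, cardiac troponin C, read 10836 and 13899 in NC pigs against 14423 and 14613 in MR pigs, and MYL3, the ventricular essential light chain, read 8584 and 10061 in NC pigs against 10583 and 10329 in MR pigs. MYH7, the slow myosin heavy chain, read 20599 and 21575 in NC pigs against 21048 and 21652 in MR pigs, near the top of the deposited range (4.8 to 27167) on all arrays. The summed intensity of the 8 genes was 47235 and 52841 in NC against 65933 and 58324 in MR. IRX4, a transcription factor of ventricular muscle, had no tested probe set with a single symbol. Whether ventricular muscle was present in the MR samples was not tested. In bulk tissue, more cells of a type and more RNA per cell cannot be told apart, and this holds for every list described here. Skeletal muscle genes other than TNNT1 were read as TNNI2, 67.2 and 78.3 in NC pigs against 72.6 and 65 in MR pigs, MYL1, 328 and 1051 in NC pigs against 341 and 1614 in MR pigs, and CKM, creatine kinase of muscle, 12155 and 12208 in NC pigs against 11141 and 10237 in MR pigs. TNNI2 thus read alike in both groups, and MYL1 varied mostly within groups.

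Proteins of the Z-disc, the anchor of the thin filaments, were higher more often than genes overall. Of 27 genes 18 were measured, 13 higher and 5 lower, with 8 higher (44.4%) and 4 lower (22.2%) without overlap and a median of 0.11. XIRP2 led the list. NEBL, nebulette, read 229 and 264 in NC pigs against 449.7 and 481 in MR pigs, and PDLIM1, which links kinases to actinin, read 913 and 1195 in NC pigs against 1691 and 1857 in MR pigs. Both were separated from the controls by more than the distance within either group. ANKRD1, a stretch-responsive ankyrin repeat protein, read 9863 and 14562 in NC pigs against 15802 and 15241 in MR pigs, where NC1 alone was low, and its log2 difference without NC1 was 0.092 against 0.37. FHL3, a LIM domain protein, read 134 and 164 in NC pigs against 107 and 103 in MR pigs, lower in MR. The filament genes of the sarcomere showed no common direction, with 15 of 25 measured genes higher, 10 lower and a median of 0.028. MYOM2, an M-band protein, read 9231 and 9186 in NC pigs against 7187 and 8365 in MR pigs.

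Calcium handling genes also had a median near that of all genes, at 0.024 with 11 of 21 higher. ATP2A2, the calcium pump of the sarcoplasmic reticulum, read 15010.4 and 15002 in NC pigs against 15279 and 13975 in MR pigs, nearly the same on all 4 arrays. RCAN1, an inhibitor of calcineurin and a target of its signalling, read 674 and 669 in NC pigs against 941 and 1335 in MR pigs. PPP1R1A, an inhibitor of protein phosphatase 1, read 294 and 326 in NC pigs against 261 and 236 in MR pigs, while PPP1CB, a catalytic subunit of that phosphatase, read 1992 and 1604 in NC pigs against 2420.2 and 2078 in MR pigs. Both genes were without overlap, in opposite directions. A further PPP1CB probe set differed by 0.62. Of 33 ion channel and connexin genes 12 were measured, and 2, both potassium channel accessory subunits, were higher without overlap. They were KCNE1 and KCNE3, the latter at 70.8 and 91.3 in NC pigs against 106 and 146 in MR pigs. KCNJ5, a subunit of the acetylcholine-activated atrial channel, read 4686 and 5762 in NC pigs against 4025 and 5113 in MR pigs, and GJA1, connexin 43, read 6088 and 5378 in NC pigs against 4826 and 5434 in MR pigs. Both overlapped between groups.

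Natriuretic peptide genes differed in the size of the difference. All 4 measured genes of 12 were higher in MR, 3 of them without overlap. NPPB, B-type natriuretic peptide, read 4509.6 and 4095 in NC pigs against 8081 and 8253 in MR pigs and 4076 and 4644 in MRV, while NPPA differed by only 0.06. NPPA was also higher without overlap, and it read in the upper part of the deposited range (4.8 to 27167) on all arrays. NPPC, C-type natriuretic peptide, and its receptor gene NPR2 read within a small range on the 4 arrays, at 101 and 107 in NC pigs against 119 and 108 in MR pigs for NPPC and 382 and 376 in NC pigs against 371 and 407 in MR pigs for NPR2. Both differed by 0.11 or less on the log2 scale.

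Genes of fatty acid use were lower in MR more often than genes overall. Of 45 genes 33 were measured, 21 lower and 12 higher, with 11 lower (33.3% against 12.4% of all genes) and 3 higher without overlap. The median was only -0.060, and it stayed below 0 without each array, from -0.11 to -0.051. Without NC2, however, 15 of the 33 were higher, a share near the 45.1% of all genes. The median of all genes was then -0.021. Beyond PDK4 and FABP7, CPT1B, the muscle enzyme that admits long-chain fatty acids to mitochondria, read 1222 and 1354 in NC pigs against 938 and 885 in MR pigs (log2 difference -0.49, SE 0.11). RXRG, a partner receptor of fatty acid sensing nuclear receptors, read 163 and 149.8 in NC pigs against 113 and 99.2 in MR pigs, and ACADL, long-chain acyl-CoA dehydrogenase, read 2008 and 1698 in NC pigs against 993 and 1484 in MR pigs. CPT1B and RXRG had tight groups, while ACADL ranged from 805 to 3028 within MRV. HADHB, a subunit of the trifunctional protein of beta-oxidation, went the other way at 5038 and 4706 in NC pigs against 7066 and 5940.1 in MR pigs. ANGPTL4, an inhibitor of lipoprotein lipase that fatty acids and fasting induce, read 183 and 254 in NC pigs against 109.8 and 107 in MR pigs and 473 and 225 in MRV. MR was lower than both other groups for ANGPTL4, as it was for PDK4.

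Glucose and glycogen genes showed single differences and no common shift. Of 22 measured genes of glycolysis and glucose uptake 14 were lower and 8 higher (median -0.025). TXNIP, which restrains glucose uptake, read 8740.2 and 10674 in NC pigs against 7043 and 8001 in MR pigs, lower in MR without overlap, and GPI, the second enzyme of glycolysis, read 4612 and 4618 in NC pigs against 4252 and 4069 in MR pigs. Of 9 measured glycogen genes 5 were higher and 4 lower. PYGM, the muscle glycogen phosphorylase, read 3035 and 2651 in NC pigs against 2024 and 1811 in MR pigs (log2 difference -0.56, SE 0.12), with its other probe sets at -0.54, -0.25 and -0.30. PGM1, the enzyme that follows it, read 2638 and 2569 in NC pigs against 2229 and 2016 in MR pigs. Both genes of glycogen breakdown were thus lower without overlap, and MRV read 1877 and 1753 for PYGM and 2091 and 1999 for PGM1.

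Mitochondrial genes differed little. Complex I had 17 of 33 measured subunits higher and 16 lower (median 0.0015), with log2 differences from -0.20 to 0.18. Complexes II to IV had 8 of 15 higher (median 0.012), and ATP synthase with the nucleotide carriers 14 of 26 (median 0.0044). NDUFA1, a complex I subunit, read 6257 and 6441 in NC pigs against 7126 and 7291 in MR pigs, and CYCS, cytochrome c, read 3478 and 3149.8 in NC pigs against 4307 and 3730.2 in MR pigs, both higher without overlap. COX10, which makes the haem of cytochrome oxidase, read 666 and 486 in NC pigs against 372 and 426 in MR pigs, and SLC25A5, a carrier that exchanges ADP for ATP, read 307 and 326 in NC pigs against 185 and 234 in MR pigs (log2 difference -0.57). Both were lower without overlap, against the level of their lists. In the citric acid cycle 13 of 24 measured genes were lower, 7 of them without overlap (29.2%). SUCLG1 and SUCLG2, subunits of succinyl-CoA ligase, read 4674 and 4967 in NC pigs against 4011 and 4178 in MR pigs and 1350.3 and 1258 in NC pigs against 1074 and 1091 in MR pigs. Both subunits differed in the same direction by a similar size, -0.23 and -0.26 on the log2 scale. For mitochondrial translation and biogenesis, 23 of 39 measured genes were lower, 11 of them without overlap (28.2%), with a median of -0.028. TUFM, the mitochondrial elongation factor, read 1094 and 1211 in NC pigs against 900.3 and 1099.7 in MR pigs, and DNM1L, which divides mitochondria, read 1641 and 1601 in NC pigs against 1183 and 1592 in MR pigs.

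Ribosomal protein genes were almost all slightly higher in MR by the group means, while their summed intensities overlapped between the groups. Of 79 cytosolic ribosomal protein genes 57 were measured, 52 higher and 5 lower (91.2% against 52.6% of all genes), with 14 higher and 0 lower without overlap. The summed intensity was 397377 and 368232 in NC against 387283 and 416808 in MR, so NC1 lay above MR1. The median was 0.078 and the largest difference 0.24, so each single difference was small. RPS12, the gene of that largest difference, read 6916 and 6735 in NC pigs against 8156 and 7990 in MR pigs, and RPL9 and RPS10 read 9304 and 9865 in NC pigs against 10439 and 10734 in MR pigs and 5943 and 5238 in NC pigs against 6018 and 6256 in MR pigs. The number higher was 55 without NC1, 32 without NC2, 57 without MR1 and 33 without MR2, and the medians were 0.14, 0.021, 0.12 and 0.014. The count of 52 was thus far smaller without NC2 or MR2, while the median stayed above 0 in each case. The 28S control did not follow this order, with its lowest and highest values both in NC. Translation factors had a median of 0.0036, with 17 of 33 higher. EIF3A, a scaffold of the initiation complex, read 2695 and 2764 in NC pigs against 3179 and 3100.3 in MR pigs, and EIF4EBP2, a repressor of initiation, read 1809.7 and 1659 in NC pigs against 1421 and 1378 in MR pigs, higher and lower in MR without overlap.

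Proteasome and cytosolic chaperone genes had medians slightly below 0. Of 40 measured proteasome subunits 23 were lower, 12 without overlap (30%), and 17 higher, with a median of -0.039. PSMD10 read 255 and 139.5 in NC pigs against 116 and 143 in MR pigs, with overlap. Its log2 difference of -0.50 was -0.10 without NC1. Apart from PSMB3 and PSMD10 the named differences were small. PSMC3, an ATPase of the cap, read 2038 and 1887 in NC pigs against 1697 and 1670.4 in MR pigs. PSMB2, a core subunit, read 1732 and 1552 in NC pigs against 1416 and 1444 in MR pigs. FBXO32, atrogin-1, a ubiquitin ligase of muscle wasting, read 4200.3 and 4664 in NC pigs against 3697 and 4119 in MR pigs. Among heat shock and cytosolic chaperone genes 22 of 37 were lower, 11 without overlap (29.7%), with a median of -0.033. The small heat shock proteins split. HSPB1 read 7007 and 7096 in NC pigs against 5439 and 5492 in MR pigs and HSPB8 read 2872 and 2705 in NC pigs against 2239 and 2184 in MR pigs, lower in MR, while HSPB7 read 2189.7 and 2079.5 in NC pigs against 3533 and 2823 in MR pigs and HSPB3 read 1424 and 1519 in NC pigs against 1683 and 1824 in MR pigs, higher. All 4 were without overlap. Genes of endoplasmic reticulum folding had 16 higher and 19 lower of 35 measured. FKBP11, a prolyl isomerase of secretory cells, was the largest difference among them at 722 and 939 in NC pigs against 423 and 516 in MR pigs (log2 difference -0.80, SE 0.17), and DNAJB9, a co-chaperone of that compartment, read 356 and 307 in NC pigs against 459 and 358 in MR pigs.

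Immediate early genes, which cells switch on within minutes of a stimulus, had the lowest median of the 54 lists with at least 5 measured genes, at -0.38. Of 39 genes 23 were measured, 15 lower and 8 higher, with 9 lower (39.1% against 12.4% of all genes) and 1 higher without overlap. The summed intensity was 15206 and 10971 in NC against 9343 and 11063 in MR, so NC2 and MR2 overlapped. The median was -0.053 without NC1 and -0.65 without NC2. EGR1, a zinc finger transcription factor, read 787 and 804 in NC pigs against 407 and 605 in MR pigs (log2 difference -0.66). Its other probe sets differed by -1.07 and -1.02, and MR1 was the lowest array on each EGR1 probe set. Without MR1 these differences were -0.39, -0.49 and -0.36. FOSL2, a further AP-1 subunit, read 168 and 130.2 in NC pigs against 82.9 and 94.4 in MR pigs, and ZFP36, which destabilises messenger RNA, read 703 and 563 in NC pigs against 375 and 505 in MR pigs. EGR1, FOSL2 and ZFP36 were lower without overlap with moderate spread in each group on these brightest probe sets. DUSP6, a phosphatase that ends growth factor signals, read 489.7 and 199.8 in NC pigs against 197 and 174 in MR pigs, and KLF10, a TGF-beta induced factor, read 663 and 413 in NC pigs against 278 and 321 in MR pigs. In both of these NC1 was well above the rest, and without NC1 the differences were -0.10 for DUSP6 and -0.45 for KLF10.

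Glucocorticoid targets and clock genes are often read beside such genes. Of 13 measured glucocorticoid targets 9 were lower and 4 higher, with a median of -0.092. Without overlap 4 were lower (30.8% against 12.4% of all genes). The direction hung on single MR arrays. Without MR1 the median was 0.070 with 8 genes higher, and without MR2 it was -0.28 with 1 higher. PDK4, ANGPTL4 and GLUL belong to this list. FKBP5, a chaperone of the receptor, read 1045 and 1095 in NC pigs against 531 and 948 in MR pigs, where MR1 alone was clearly lower, and -0.17 was its log2 difference without MR1. Of 22 clock genes 7 were measured, with a median of -0.0039. ARNTL, the core activator of the clock, read 101 and 150.1 in NC pigs against 76.7 and 88.7 in MR pigs, and NFIL3, a repressor in its output, read 242 and 217 in NC pigs against 135 and 200.3 in MR pigs. The labels do not state the hour at which tissue was taken.

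Matrix genes had no stable direction. Of 28 measured collagens and matrix proteins 13 were higher and 15 lower (median -0.048). The median was 0.17 without NC1 and -0.32 without NC2, so the choice of control animal set its sign. COL1A2, a chain of the main fibrillar collagen, read 206 and 221 in NC pigs against 230.4 and 189 in MR pigs, and POSTN, periostin, a matrix protein of active fibroblasts, read 1932 and 2258 in NC pigs against 1676 and 1409.6 in MR pigs. THBS1, thrombospondin 1, which activates TGF-beta, read 823 and 746 in NC pigs against 396 and 570.5 in MR pigs (log2 difference -0.70), and COL15A1, a basement membrane collagen, read 3155 and 1933 in NC pigs against 1527 and 1598 in MR pigs. LAMC1, a laminin chain, read 2787 and 2406 in NC pigs against 1713 and 2167 in MR pigs. These 3 and POSTN were lower in MR without overlap, while COL1A2 overlapped. For COL15A1 NC1 was the outlying value, and its log2 difference of -0.66 was -0.30 without NC1. Among matrix proteases, inhibitors and crosslinkers 10 of 18 were higher, 5 without overlap (27.8%). TIMP1, an inhibitor of matrix metalloproteinases, read 321 and 282 in NC pigs against 423 and 447 in MR pigs, and SERPINE2, an inhibitor of thrombin and plasmin, read 678 and 648 in NC pigs against 1006 and 1027 in MR pigs. Both inhibitors were higher in MR with tight values in each group.

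Signals that act on matrix and growth gave few differences. TGFB1 itself read 179 and 159 in NC pigs against 149 and 191 in MR pigs, overlapping between groups, and 6 of 14 measured genes of TGF-beta and BMP signalling were higher (median -0.0052). ID1, a target of BMP signalling, read 1184 and 977 in NC pigs against 816 and 844 in MR pigs, and INHBA, a subunit of activin, read 221 and 222 in NC pigs against 262 and 274 in MR pigs, lower and higher without overlap. Of 10 measured YAP-linked genes 4 were higher and 6 lower. AMOTL1, a junction protein that binds YAP, read 936 and 1027 in NC pigs against 539.6 and 561 in MR pigs (log2 difference -0.81, SE 0.11), and F3, tissue factor, read 578 and 723 in NC pigs against 1099 and 882 in MR pigs and 189 and 284 in MRV. VEGFA, the endothelial growth factor, read 2792 and 1887 in NC pigs against 1501 and 1764 in MR pigs, and EGFR, the epidermal growth factor receptor, read 349 and 199.7 in NC pigs against 154 and 199 in MR pigs. VEGFA and EGFR were lower without overlap, although the highest value of both was that of NC1, and without NC1 the differences of -0.49 for VEGFA and -0.55 for EGFR were -0.21 and -0.17.

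Vasoactive genes were mostly higher. Of 24 genes of endothelin, nitric oxide and vascular tone 13 were measured, 11 higher and 2 lower, with 5 higher (38.5%) and 2 lower without overlap and a median of 0.11. The median lay between 0.11 and 0.29 without each array. The number higher was 8 without NC1, 9 without NC2, 10 without MR1 and 9 without MR2. The summed intensity was 5076 and 3956 in NC against 4808 and 4743 in MR, so the groups overlapped and NC1 was highest. EDN1, endothelin 1, a vessel constrictor, read 91.5 and 78.7 in NC pigs against 138 and 121 in MR pigs, while EDNRA, its receptor on smooth muscle, read 672 and 639.8 in NC pigs against 459 and 386 in MR pigs (log2 difference -0.62, SE 0.14). Ligand and receptor thus differed in opposite directions, each without overlap. GUCY1B3, a subunit of the nitric oxide receptor guanylate cyclase, read 374 and 258 in NC pigs against 540.1 and 446 in MR pigs. DDAH1, which clears a natural blocker of nitric oxide production, read 147 and 226 in NC pigs against 299 and 259 in MR pigs and 97.5 and 96.2 in MRV, where both values were below all NC and MR arrays.

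Renin-angiotensin genes leaned the other way, with 7 of 9 measured genes lower and a median of -0.25. The median was -0.079 without NC1 and -0.42 without NC2. AGT, angiotensinogen, read 4209 and 1803 in NC pigs against 1887 and 1097 in MR pigs, and ENPEP, an angiotensin peptidase, read 381 and 119 in NC pigs against 109.8 and 123 in MR pigs. In both genes NC1 was the high value and the groups overlapped, and the log2 differences of -0.93 for AGT and -0.80 for ENPEP were -0.32 and -0.024 without NC1. AGTR1, the receptor that valsartan blocks, read 599 and 588 in NC pigs against 352 and 518 in MR pigs and 469 and 414 in MRV. Adrenergic, G protein and kinase C genes had 17 of 24 measured members lower (median -0.059), but only 3 of them without overlap. GRK5, a kinase that turns off adrenergic receptors, read 305 and 372 in NC pigs against 452 and 473 in MR pigs, and GNAI2, an inhibitory G protein subunit, read 717 and 722 in NC pigs against 876 and 876 in MR pigs, both higher without overlap.

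**Figure D4:**
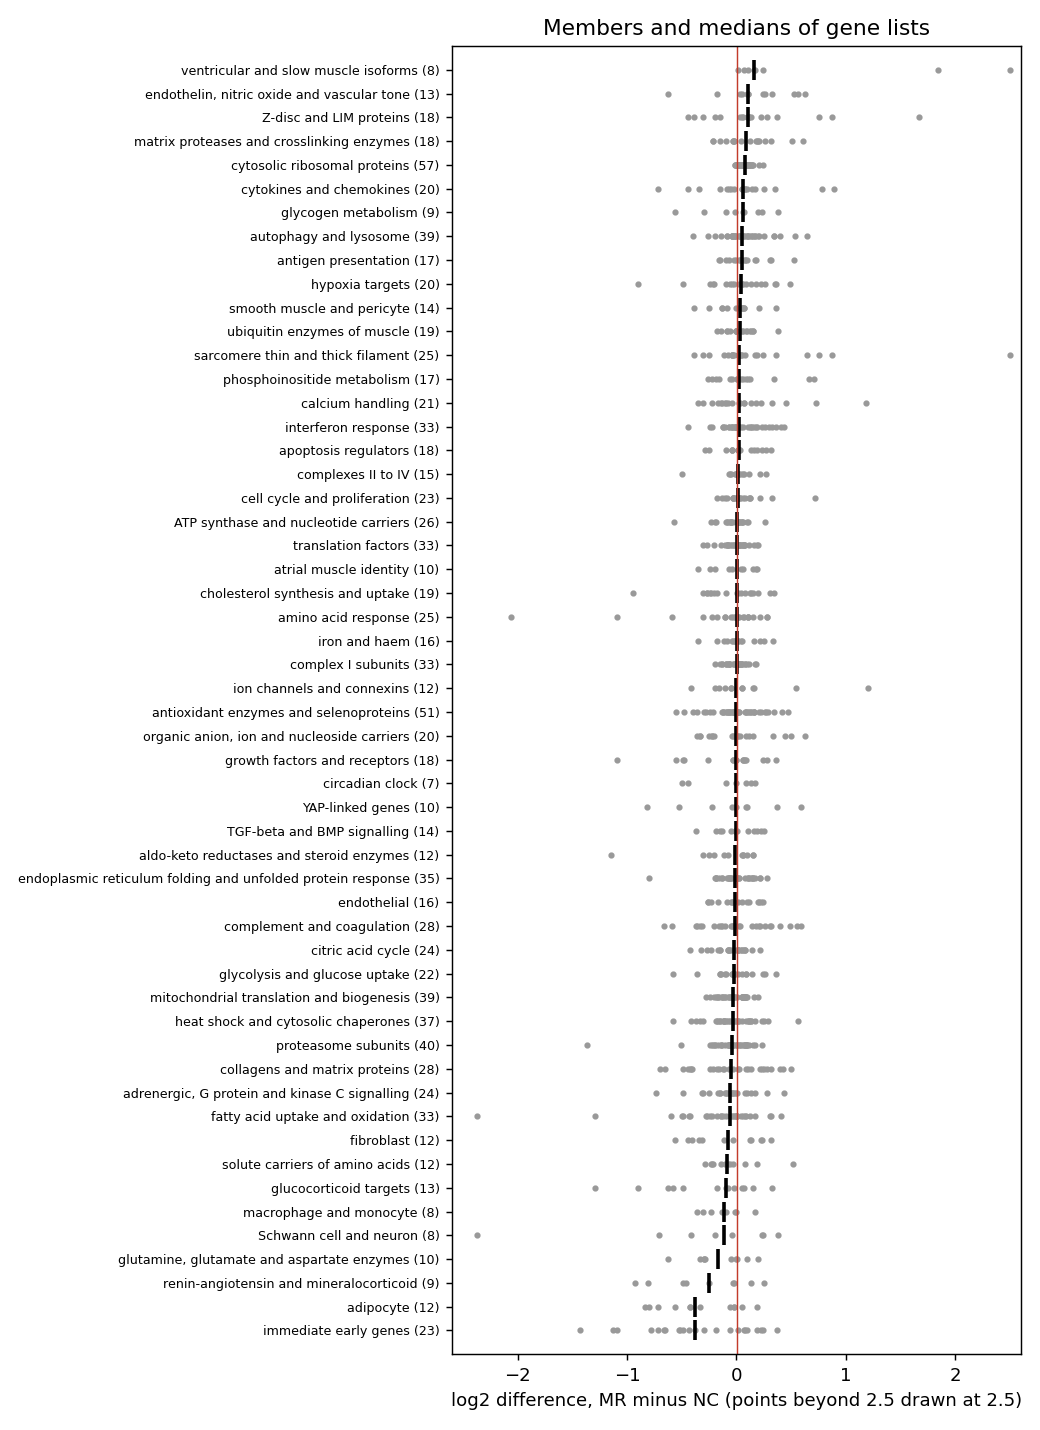
Log2 difference MR minus NC of each measured gene (grey points) and the median (black bar) of 54 gene lists with at least 5 measured genes, in order of median; measured genes are in brackets and the red line marks the median of all 5407 genes. Medians run from -0.38 for the immediate early genes to 0.16 for the ventricular and slow muscle isoforms, and most lie near 0.

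Lysosome and autophagy genes were higher without overlap more often than genes overall. Of 54 genes 39 were measured, 24 higher and 15 lower, with 10 higher (25.6% against 15.7% of all genes) and 1 lower without overlap and a median of 0.048. WIPI1, which binds lipids of the forming autophagosome, read 326 and 316 in NC pigs against 453 and 493 in MR pigs (log2 difference 0.54), although a second probe set differed by 0.029. ATG3, which attaches lipid to the autophagosome marker, read 1086 and 883 in NC pigs against 1249 and 1349 in MR pigs, and NPC1, the lysosomal cholesterol exporter, read 249 and 245 in NC pigs against 297 and 340 in MR pigs. LAMP2, a lysosome membrane protein, was the exception that was lower without overlap, at 1877 and 1781 in NC pigs against 1444 and 1604 in MR pigs. Phosphoinositide genes included both large and opposite differences. INPP5F, a phosphatase of inositol lipids known to restrain heart growth, read 526 and 539.6 in NC pigs against 884 and 820.5 in MR pigs (log2 difference 0.66, SE 0.10), and PPIP5K2, a kinase of inositol pyrophosphates, read 335 and 339 in NC pigs against 532 and 591 in MR pigs (0.71, SE 0.11). Their values lay close together within groups, and MRV read 468 and 470.1 for INPP5F. INPP5A, a phosphatase of the calcium-releasing inositol phosphate, read 1337 and 1132 in NC pigs against 992 and 1056 in MR pigs, lower in MR.

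Redox and sterol genes gave single differences. Of 51 measured antioxidant and selenoprotein genes 26 were higher and 25 lower (median 0.0011). NQO1, a quinone reductase induced through NRF2, read 483 and 461 in NC pigs against 602 and 669.8 in MR pigs, and GPX4, which reduces lipid peroxides, read 2502 and 2536 in NC pigs against 2896 and 3261 in MR pigs, both higher. MSRB1, a selenoprotein that repairs oxidised methionine, read 1245 and 1312 in NC pigs against 848 and 890.1 in MR pigs, and HMOX2, the constitutive haem oxygenase, read 706 and 698 in NC pigs against 579 and 562 in MR pigs, both lower. Of 19 measured genes of cholesterol synthesis and uptake 10 were higher and 9 lower. INSIG1, a sterol-regulated brake on that pathway, read 430.4 and 566 in NC pigs against 205 and 300.5 in MR pigs and 606 and 264 in MRV, the largest difference of its list at -0.95. SLCO3A1, an organic anion carrier, read 240 and 265 in NC pigs against 428 and 373 in MR pigs, and SLC25A21, a mitochondrial carrier of oxodicarboxylates, read 318 and 336 in NC pigs against 465 and 474 in MR pigs, both higher with close values within groups.

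Proliferation, death and hypoxia genes showed no common shift. Of 23 measured cell cycle genes 15 were higher and 8 lower (median 0.012). CCNG2, a cyclin linked to growth arrest, read 212 and 227 in NC pigs against 384 and 360 in MR pigs (log2 difference 0.72, SE 0.10), and CDKN1A, the kinase inhibitor p21, read 310.1 and 369 in NC pigs against 409 and 451 in MR pigs. Both arrest genes were higher without overlap. Of 18 measured apoptosis regulators 12 were higher, with CFLAR, an inhibitor of caspase 8, at 229 and 291 in NC pigs against 296 and 358 in MR pigs, and FADD, an adaptor of death receptors, lower at 114 and 108 in NC pigs against 88.9 and 87.2 in MR pigs. Hypoxia targets had a median of 0.039, which was 0.25 without NC1 and -0.21 without NC2.

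Immune genes differed little. Of 33 measured interferon response genes 18 were higher and 15 lower, with 2 without overlap, both higher, and a median of 0.024. IFNGR1, a chain of the interferon gamma receptor, read 419 and 387 in NC pigs against 478 and 608 in MR pigs. Among 20 measured cytokines and chemokines 12 were higher, with 3 higher and 0 lower without overlap. CXCL14 read 47.7 and 84.8 in NC pigs against 208 and 82.4 in MR pigs, where MR1 alone stood out, and CCL19, which guides lymphocytes and dendritic cells, read 74 and 55.6 in NC pigs against 85.2 and 87.5 in MR pigs. Of 17 measured antigen presentation genes 11 were higher, 4 without overlap (23.5%) and 0 lower without overlap. Without NC2 only 6 of the 17 were higher. The median of 0.047 was 0.18 without NC1 and -0.086 without NC2. CD83, a marker of mature dendritic cells, read 80 and 79.7 in NC pigs against 125 and 119 in MR pigs, and CD40, a costimulatory receptor, read 81.7 and 91.8 in NC pigs against 103 and 119 in MR pigs. Complement and coagulation genes had 13 higher and 15 lower of 28, with C3 at 814 and 588 in NC pigs against 719 and 1325 in MR pigs and PROCR, the protein C receptor, at 2398 and 1184 in NC pigs against 1100.1 and 1137 in MR pigs.

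Markers of the other cell types of atrial tissue varied with single animals. Adipocyte genes had 10 of 12 measured genes lower (median -0.38), but the summed intensity was 8688 and 6416 in NC against 6489 and 6086 in MR. The median was -0.14 without NC1 and -0.66 without NC2. LIPE, hormone-sensitive lipase, read 176 and 189 in NC pigs against 112 and 98 in MR pigs, with no overlap and tight groups. Macrophage genes had 7 of 8 measured genes lower but 0 without overlap, with sums of 1329 and 848 in NC against 778 and 1182 in MR, and a median of -0.11 that was 0.17 without NC1. Fibroblast genes had 5 higher and 7 lower of 12, with sums of 27319 and 21274 in NC against 19196 and 22620 in MR. Endothelial genes had 8 higher and 8 lower of 16 (sums 5573 and 5469 in NC, 5326 and 5871 in MR), and smooth muscle and pericyte genes 8 higher and 6 lower of 14 (sums 26733 and 23931 in NC, 24092 and 24281 in MR). In each of these 5 lists the summed values of the groups overlapped. The part of cell composition in the differences of other genes was not tested. PDPN, a lymphatic endothelial marker, read 246 and 229.6 in NC pigs against 310 and 366 in MR pigs, and of 8 measured Schwann cell and neuron genes, which include FABP7, 5 were lower (median -0.12). The median of that list was 0.20 without NC1 and -0.43 without NC2. S100B and SOX10, glial markers, were among its 3 higher genes, opposite to FABP7. S100B read 536 and 482 in NC pigs against 612 and 601 in MR pigs. SOX10 read 55.3 and 66.9 in NC pigs against 74 and 74.6 in MR pigs, near the filter level of 60.8.

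The remaining lists lay near the median of all genes. Of 19 measured ubiquitin enzymes of muscle 11 were higher (median 0.029), with UBE2H, a conjugating enzyme, at 831 and 801 in NC pigs against 879.7 and 940.3 in MR pigs. Iron and haem genes had 8 higher and 8 lower of 16, and FECH, which inserts iron into haem, read 1218 and 1204 in NC pigs against 1068 and 1076 in MR pigs. Growth factors and receptors had 8 higher and 10 lower of 18, and TEK, the angiopoietin receptor, read 348 and 318 in NC pigs against 392 and 401 in MR pigs. Organic anion, ion and nucleoside carriers had 10 higher and 10 lower of 20, with ABCB1, a drug exporter, at 128 and 90.9 in NC pigs against 173 and 135 in MR pigs. Aldo-keto reductases and steroid enzymes had 6 higher and 6 lower of 12, with HSD17B10, a mitochondrial steroid dehydrogenase, at 1604 and 1228 in NC pigs against 1144 and 1114 in MR pigs. TEK, UBE2H and ABCB1 were higher in MR without overlap, and FECH and HSD17B10 lower. Markers of blood cells and of rarer cell types had fewer than 5 measured genes each. Among these CD8B of T cells read 75.9 and 83.9 in NC pigs against 93.6 and 88.5 in MR pigs, JCHAIN of plasma cells 191 and 144 in NC pigs against 152 and 156 in MR pigs, GATA2 of mast cells 205 and 229 in NC pigs against 176 and 236 in MR pigs and FCGR3A of neutrophils and natural killer cells 252 and 165 in NC pigs against 218 and 256 in MR pigs. HBB of red cells read 345 and 205 in NC pigs against 328 and 273 in MR pigs, ALDH1A1 of epicardium 492 and 374 in NC pigs against 363 and 456 in MR pigs and VSNL1 of pacemaker tissue 926 and 266 in NC pigs against 415 and 657 in MR pigs. Of these genes CD8B alone was without overlap, and VSNL1 differed more within each group than between the groups.

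Further probe sets of some named genes gave other values. The sign was opposite for CFLAR (-0.11), RPL9 (-0.16), NPR2 (-0.024) and GATA2 (0.061), while 2 of 3 further EIF4EBP2 probe sets differed by only -0.064 and -0.027 and the third, by -0.37, somewhat more than the brightest. The direction was the same but the difference smaller for ATG3 (0.18), COX10 (-0.26), CXCL14 (0.53), DNM1L (-0.12), EGFR (-0.34), FKBP5 (-0.28), GUCY1B3 (0.38), KCNJ5 (-0.11) and NDUFA1 (0.075). It was also smaller for VEGFA (-0.25 and -0.23), LAMC1 (-0.22 to -0.11) and 1 of 2 DNAJB9 probe sets (0.035, the other 0.34). SLC38A1 (0.57 and 0.25) and LAMP2 (-0.61 and -0.20) each had 1 further probe set with a larger and 1 with a smaller difference. The difference was larger for CD40 (0.47) and the dimmer ATP2A2 probe sets (-0.18 to -0.13).

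Several named differences were much smaller without NC1. Among genes lower in MR, the log2 difference without NC1 against that with all arrays was -0.083 against -0.33 for ASL, -0.89 against -1.44 for FAM216B, -0.082 against -0.59 for PROCR, -0.28 against -0.50 for COX10, -0.12 against -0.31 for HSD17B10, -0.23 against -0.37 for ID1, -0.14 against -0.26 for INPP5A and -0.10 against -0.21 for SLC1A4. Among genes higher in MR it was 0.27 against 0.52 for SLC38A1, 0.28 against 0.56 for DDAH1, 0.21 against 0.33 for CDKN1A, 0.16 against 0.32 for CFLAR, 0.063 against 0.24 for TNNC1, 0.12 against 0.23 for SOX10 and 0.56 against 0.89 for CXCL14. The same pairs of values were 0.055 against 0.17 for MYL3 and 0.099 against 0.16 for CD8B. They were -0.070 against -0.16 for GJA1 and -0.12 against -0.20 for PSMB2. All of these kept their direction.

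Single arrays decided the direction of several lists. Over all genes the median difference was 0.035 without NC1, -0.021 without NC2, 0.026 without MR1 and -0.00085 without MR2. The medians of the collagen, hypoxia and macrophage lists had opposite signs without NC1 and without NC2. Among others, the same held for the fibroblast, smooth muscle, Schwann cell, complement, interferon, antigen presentation and phosphoinositide lists. The median of the glucocorticoid targets was 0.070 without MR1 and -0.28 without MR2. The ribosomal, lysosome, Z-disc, ventricular and vasoactive lists stayed above 0 without each of the 4 arrays. The fatty acid, mitochondrial translation, proteasome, renin-angiotensin, immediate early and adipocyte lists stayed below 0, although the last 3 came closest to 0 without NC1.

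**Figure D5:**
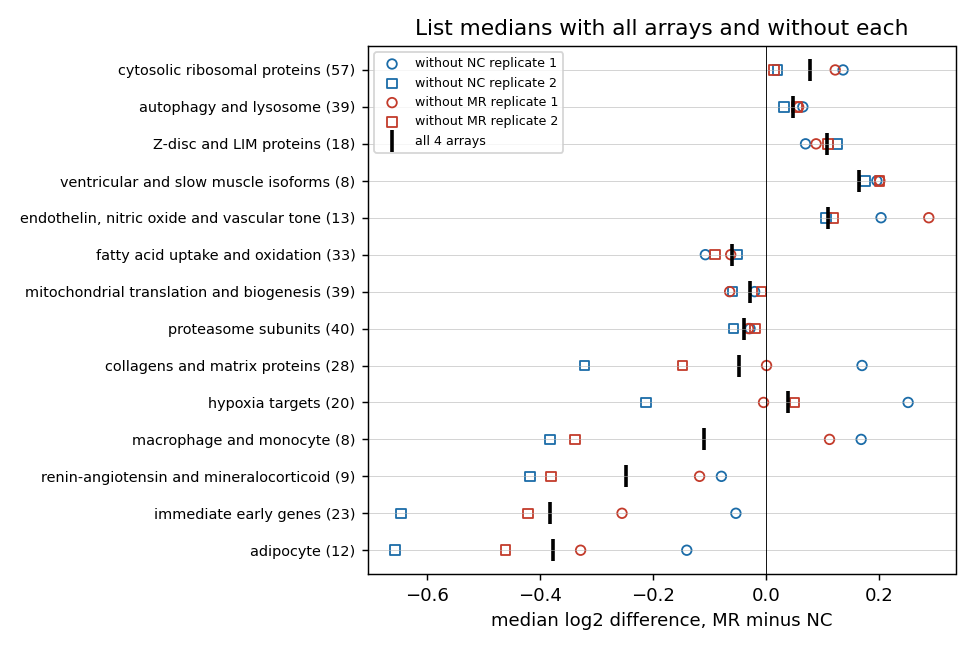
Median log2 difference MR minus NC of 14 gene lists with all 4 arrays (black bar) and without each array (open symbols), with measured genes in brackets. The medians of collagens, hypoxia targets and macrophage genes lie on opposite sides of 0 without NC replicate 1 and without NC replicate 2, while the vasoactive, Z-disc and ventricular lists stay above 0.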

How the data were processed

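Total RNA from left atria was hybridised to 1 Affymetrix porcine array per pig. The deposited table holds 1 linear intensity per probe set and array, normalized between arrays by the authors. MAS5 and RMA are the tools listed in the submitters' processing notes, and their roles and versions are not stated there. Scanner files were not used here. Groups came from the sample titles.

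Intensities were tested as log2(intensity + 16), a scale that understates differences of dim probe sets. Testing was limited to probe sets whose mean over 6 arrays reached the 40th percentile, which lay at 60.8 intensity units. Group means were fitted to all 6 arrays by limma 3.58.1 (lmFit, eBayes; R 4.3.3; 3 residual and 2.81 prior degrees of freedom), with two-sided p-values adjusted by Benjamini-Hochberg over 14399 probe sets. With 2 arrays against 2, an exact permutation test of a single gene cannot go below 0.333, so none is given. The fit was tested on simulated data. Precision is limited by having 2 arrays in each group.

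Gene symbols came from the platform annotation, where 10069 probe sets had 1 symbol, 198 had several and 13732 had none. Of those with 1 symbol, 9961 were found in RefSeq Sscrofa11.1 and 0 symbols changed. The brightest probe set stood for a gene (1335 genes had more than 1). No build is named for the array, so no coordinates are given, and sequences were not analysed here.

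The comparison and the 64 gene lists were chosen with earlier results of these data known. Lists were described by counts and medians, without a set test. Named genes were those past the threshold, up to 15 in each direction at 2-fold or more without overlap, up to 4 per list by moderated statistic, list members with a log2 difference of at least 0.5 without overlap, and 18 further genes of atrial muscle, load and matrix wherever measured. Alternatives changed the pseudocount, the filter, the normalization, the arrays, the prior and the probe set per gene.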

Additional observations from a re-analysis of the deposited data

How the results depend on the processing

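The single call depended on the processing. With ASNS at 1 called probe set, 1 was called with a pseudocount of 64, the 60th percentile filter or centred array medians. It was 0 with a pseudocount of 1 (573 at unadjusted p below 0.05), no filter (955), quantile normalization (609), an intensity trend in limma (578) or only MR and NC arrays in the fit (461). Without single arrays it was 0 to 0, with 349 to 1234 at unadjusted p below 0.05 by limma. The log2 difference of ASNS itself ran from -2.15 to -1.83, and the cause of the lost calls was not tested. The count of 55 probe sets at least 2-fold apart without overlap was 26 with a pseudocount of 64 and 97 to 264 without single arrays.

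The replicate number as a block gave 0 called probe sets and 685 at unadjusted p below 0.05. The labels give no reason to pair equal numbers, and the differences between replicates correlated at 0.34 between NC and MR, 0.21 between NC and MRV and 0.018 between MR and MRV. One of the 3 was thus near 0, and the numbers were not taken as pairs.

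Of 1932 recomputed log2 differences of 159 named genes, 1896 kept their direction and their side of the threshold, 9 (all of ASNS) lost the call and 27 changed sign. RPL9 was -0.0081 with the mean of its probe sets. The other sign changes came from leaving out single arrays, with ranges of -0.26 to 0.12 for ALDH1A1, -0.15 to 0.57 for AMY2, -0.10 to 0.026 for ATP2A2, -0.16 to 0.10 for COL1A2, -0.091 to 0.48 for FCGR3A, -0.27 to 0.11 for GATA2, -0.20 to 0.51 for HBB, -0.29 to 0.088 for JCHAIN and -0.087 to 0.00996 for KIAA0907, and of -0.015 to 0.051 for MYH7, -0.76 to 1.43 for MYL1, -0.028 to 0.098 for NPR2, -0.055 to 0.095 for RPL23, -0.79 to 0.083 for SLN, -0.16 to 0.17 for TGFB1, -0.0103 to 0.40 for TNFRSF12A, -0.15 to 0.026 for TNNI2 and -0.81 to 0.93 for VSNL1. None of these genes was called. Of 54 list medians 34 changed sign in at least 1 of 12 alternatives (87 of 648 values), most of them medians near 0. Low signal limits dim probe sets near the filter, and 2 animals per group limit all comparisons.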
